A study of Caenorhabditis elegans with 15 samples.

Results

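The genes described here are the neuropeptide precursors of Caenorhabditis elegans whose WormBase symbols begin with flp (FMRFamide-like peptides) or nlp (neuropeptide-like proteins). The count table held 102 genes with such symbols among 46778 genes. The 8 genes nlp-27 to nlp-34 were left out because they encode antimicrobial peptides, and a total of at least 10 counts over the 15 samples was required. This gave 93 genes, 31 flp and 62 nlp, of the 19595 genes of the table that reached the same total. RNA was sequenced from whole worms of the wild-type strain N2 at the adult day 1 stage, after exposure to 10 µg/ml SiO2 nanoparticles (SiO2 group), to 10 µg/ml Ag nanoparticles (Ag group) or to no nanoparticles (0 µg/ml, Control), with 5 samples in each group. All groups were started from 350 to 400 first-stage larvae per well, were fed Escherichia coli OP50 and were grown for 72 h at 21 °C, and no transgene or mutation was present. The sample labels place the exposure at the adult day 1 stage, whereas the study's methods describe larvae that grew up with the nanoparticles, so the stage at which exposure began differs between the sources. The study's methods describe more repeats of each condition than the 5 samples per group analysed here. Whether the wells of a group were separate cultures of worms hatched on the same day is not stated, and the p-values measure only the spread between these samples.

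Neuropeptides are short signalling molecules cut from longer precursor proteins inside dense core vesicles. The precursor is cleaved by proprotein convertases such as EGL-3, trimmed by the carboxypeptidase EGL-21 and often amidated, and the released peptides mostly act on G protein-coupled receptors. The flp genes encode precursors of peptides that end in an amidated Arg-Phe motif, while the nlp genes are a mixed family named for lacking that motif or the insulin fold. In C. elegans these peptides modulate locomotion, egg laying, feeding, sleep and defecation. Most are made in neurons, and some, such as NLP-40, are made in the intestine. In whole-worm RNA, fewer cells of a type and less RNA per cell cannot be told apart.

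Total counts per sample ranged between 16560734 and 24296570. Between 28010 and 62383 of these counts fell on the 93 genes, and 91 to 93 of the genes had at least 1 count in each sample. Values below are CPM, counts scaled by library size, after TMM normalization over all 15 samples, and levels of different genes are compared only as RPKM, which is CPM per kilobase of the exonic length of the gene model. All 12 pan-neuronal marker genes and all 5 intestinal marker genes examined were detected in every group.

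The highest level per kilobase belonged to nlp-40, whose peptide is released from the intestine and drives the expulsion step of defecation, with a mean of 328 ± 36.9 RPKM (SD, n = 15). It was followed by nlp-20 (254 RPKM), nlp-36 (196 RPKM), flp-28 (159 RPKM), nlp-12 (152 RPKM), nlp-49 (139 RPKM), flp-22 (110 RPKM) and flp-14 (109 RPKM). The means of flp-22 and flp-14 differed by less than the SD of either gene, as did those of flp-28 and nlp-12. Together these 8 genes took 34.3% of the CPM of the 93 genes, and nlp-40 alone took 10.5%. The median over the 93 genes was 23.5 RPKM, with 32.8 RPKM for flp and 15.6 RPKM for nlp genes. The 20 highest ranks held 10 flp and 10 nlp genes. At the low end, 7 genes had a mean under 1 CPM, and 3 of them (nlp-23, flp-23 and nlp-25) had no count in at least 1 sample.

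**Figure D1:**
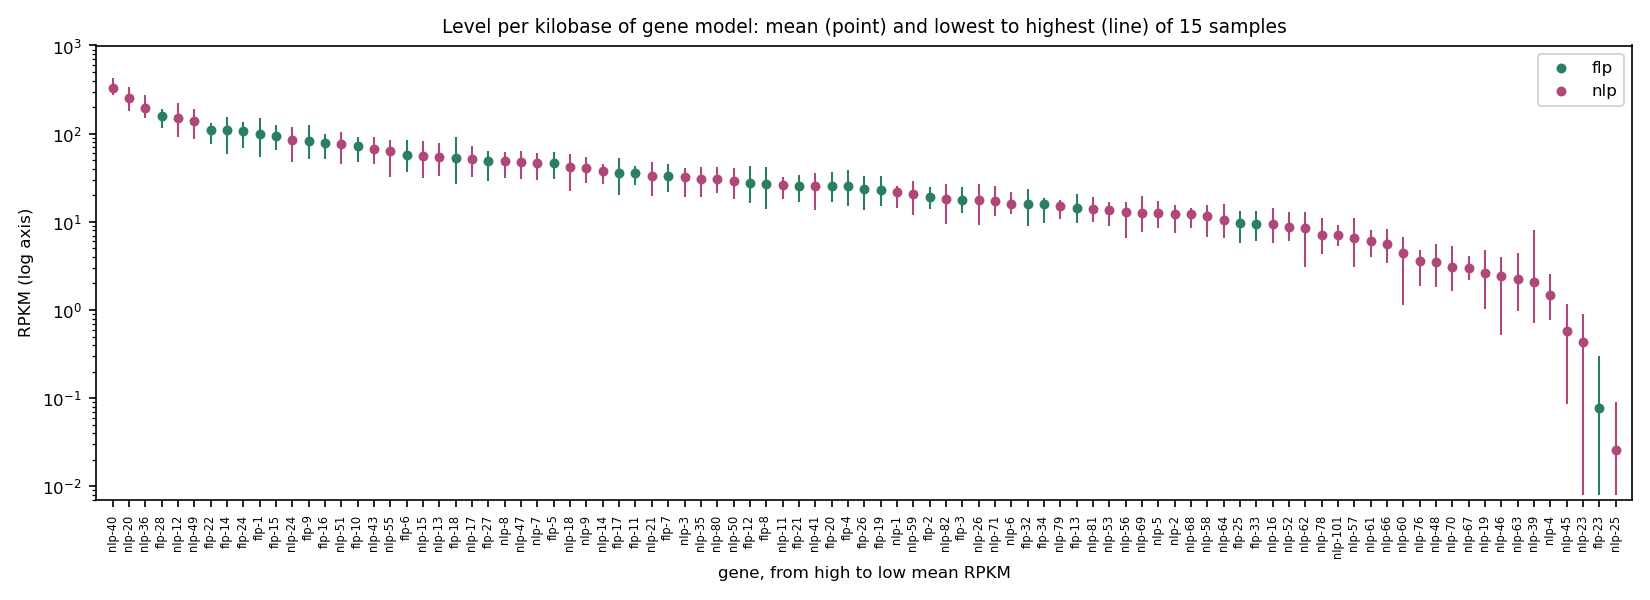
Level of each of the 93 genes in RPKM on a log axis, ordered from high to low, with points for the mean and lines for the lowest to highest of the 15 samples. The means run between 328 RPKM for nlp-40 and 0.0262 RPKM for nlp-25, and the lines of the 3 genes with samples at 0 counts are cut at the bottom of the axis.

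The genes nearest the required total were nlp-25 with 13 counts and flp-23 with 14 counts on the inside. The single gene outside it was nlp-22, a sleep-promoting neuropeptide of the RIA interneurons in larvae, with 6 counts over all samples. Chromosome X held 31 of the 93 genes (33.3%), against 13.7% of all genes with the same total. The share was 41.9% for flp genes and 29.0% for nlp genes. Of the 93 genes, 19 share exonic bases with a neighbouring gene in the Ensembl annotation. The study counted reads in the intersection-strict mode of HTSeq, but the use of strand is not given in the sources used here. How reads in the shared bases were counted is therefore not known. Among the genes described below, those with shared bases are nlp-21 (46 bases shared with subs-4), nlp-35 (68 bases shared with C33A12.19), nlp-76 (67 bases shared with nhr-17), flp-8 (21 bases shared with F31F6.11), nlp-24, nlp-26, nlp-36, nlp-41, nlp-79, flp-11 and flp-17. For nlp-76 and flp-17 the neighbour lies on the same strand, so a strand setting could not separate them.

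The summed level of the 93 genes was 2061, 2467, 2129, 1599 and 2280 CPM in SiO2 replicates 11 to 15, and 2484, 2291, 2475, 1675 and 1950 CPM in Ag replicates 6 to 10. In Control replicates 1 to 5 it was 2692, 2673, 2367, 2282 and 2113 CPM. The 3 groups overlapped, with means of 2107 ± 324 CPM in the SiO2 group, 2175 ± 353 CPM in the Ag group and 2426 ± 252 CPM in Control (SD, n = 5 each). SiO2 replicate 14 and Ag replicate 9 stood lowest. In these libraries 88 and 87 of the 93 genes lay below the mean of Control, and 84 and 76 lay below the lowest Control sample. In SiO2 replicate 12, by contrast, 36 genes lay below the Control mean and 3 below the lowest Control sample.

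The genes moved together among replicates of the same group. For the 70 genes with a mean of at least 5 CPM, the SD of log2 CPM within groups had a median of 0.29, against 0.21 over the 10979 genes of that level. The main axis of variation within groups (the first principal component of the deviations from the group means) held 68.0% of the variance of these 70 genes, and all 70 had the same sign on it. The lowest value within the group was in SiO2 replicate 14 for 64 of the 70 genes, in Ag replicate 9 for 61 and in Control replicate 5 for 48. flp-18, flp-8, nlp-18, flp-1 and flp-14 varied most, with within-group SDs of 0.46, 0.45, 0.41, 0.41 and 0.40 on the log2 scale. nlp-40, nlp-79, nlp-36, flp-28 and nlp-8 varied least, with SDs of 0.16, 0.17, 0.18, 0.18 and 0.18. These values describe 15 libraries and carry no test.

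The same 3 libraries had the highest summed level of germ line marker genes in their groups. The 3 germ line markers (glh-1, pgl-1 and pgl-3) summed to 607 CPM in SiO2 replicate 14, where the group ranged between 271 and 607 CPM. They summed to 669 CPM in Ag replicate 9, where the group ranged between 401 and 669 CPM, and to 430 CPM in Control replicate 5, where the group ranged between 212 and 430 CPM. The 5 oocyte markers were also highest in these libraries, at 2870, 3351 and 2448 CPM. The 12 pan-neuronal markers were lowest in them, at 668, 630 and 735 CPM. In Ag replicate 8, however, the pan-neuronal sum was also 630 CPM, while its neuropeptide sum of 2475 CPM was among the highest of its group. No germ line, oocyte or pan-neuronal marker was at 0 in any group. The part of these shifts in the level of the neuropeptide genes was not tested.

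**Figure D2:**
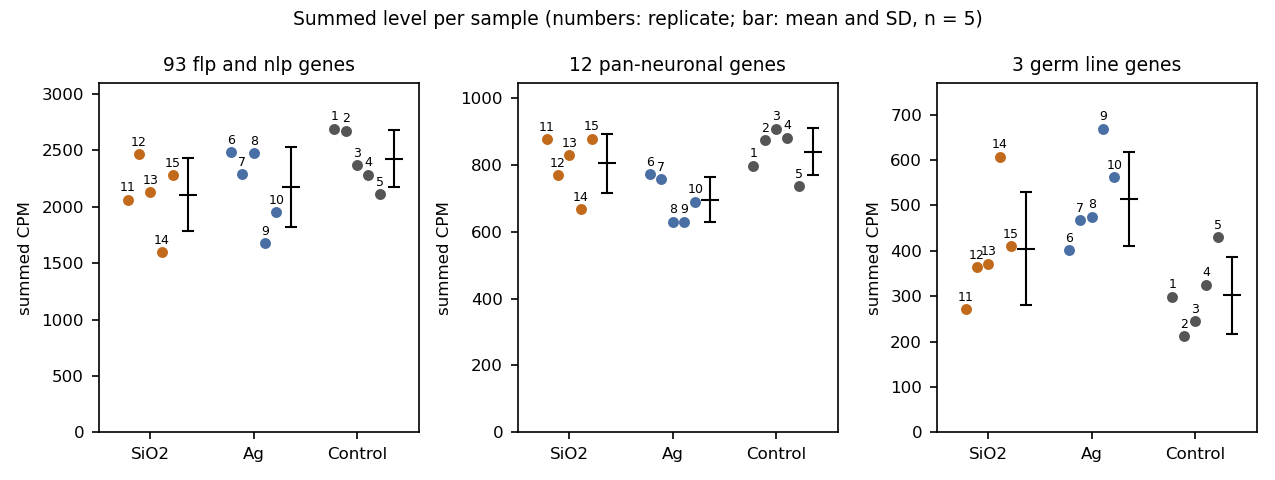
Summed CPM per sample of the 93 flp and nlp genes, of 12 pan-neuronal genes and of 3 germ line genes, for the SiO2, Ag and Control groups (points: samples with their replicate numbers, bars: mean and SD, n = 5). SiO2 replicate 14, Ag replicate 9 and Control replicate 5 have the lowest neuropeptide sums of their groups (1599, 1675 and 2113 CPM) and the highest germ line sums (607, 669 and 430 CPM).

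Relative to the pan-neuronal sum of the same sample, the neuropeptide sum was 2.63 ± 0.35 in the SiO2 group, 3.13 ± 0.49 in the Ag group and 2.90 ± 0.33 in Control (SD, n = 5 each). The pan-neuronal sum itself was 804 ± 88.4 CPM in the SiO2 group, 695 ± 67.5 CPM in the Ag group and 839 ± 70.9 CPM in Control. For both quantities the samples of the 3 groups overlapped.

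**Figure D3:**
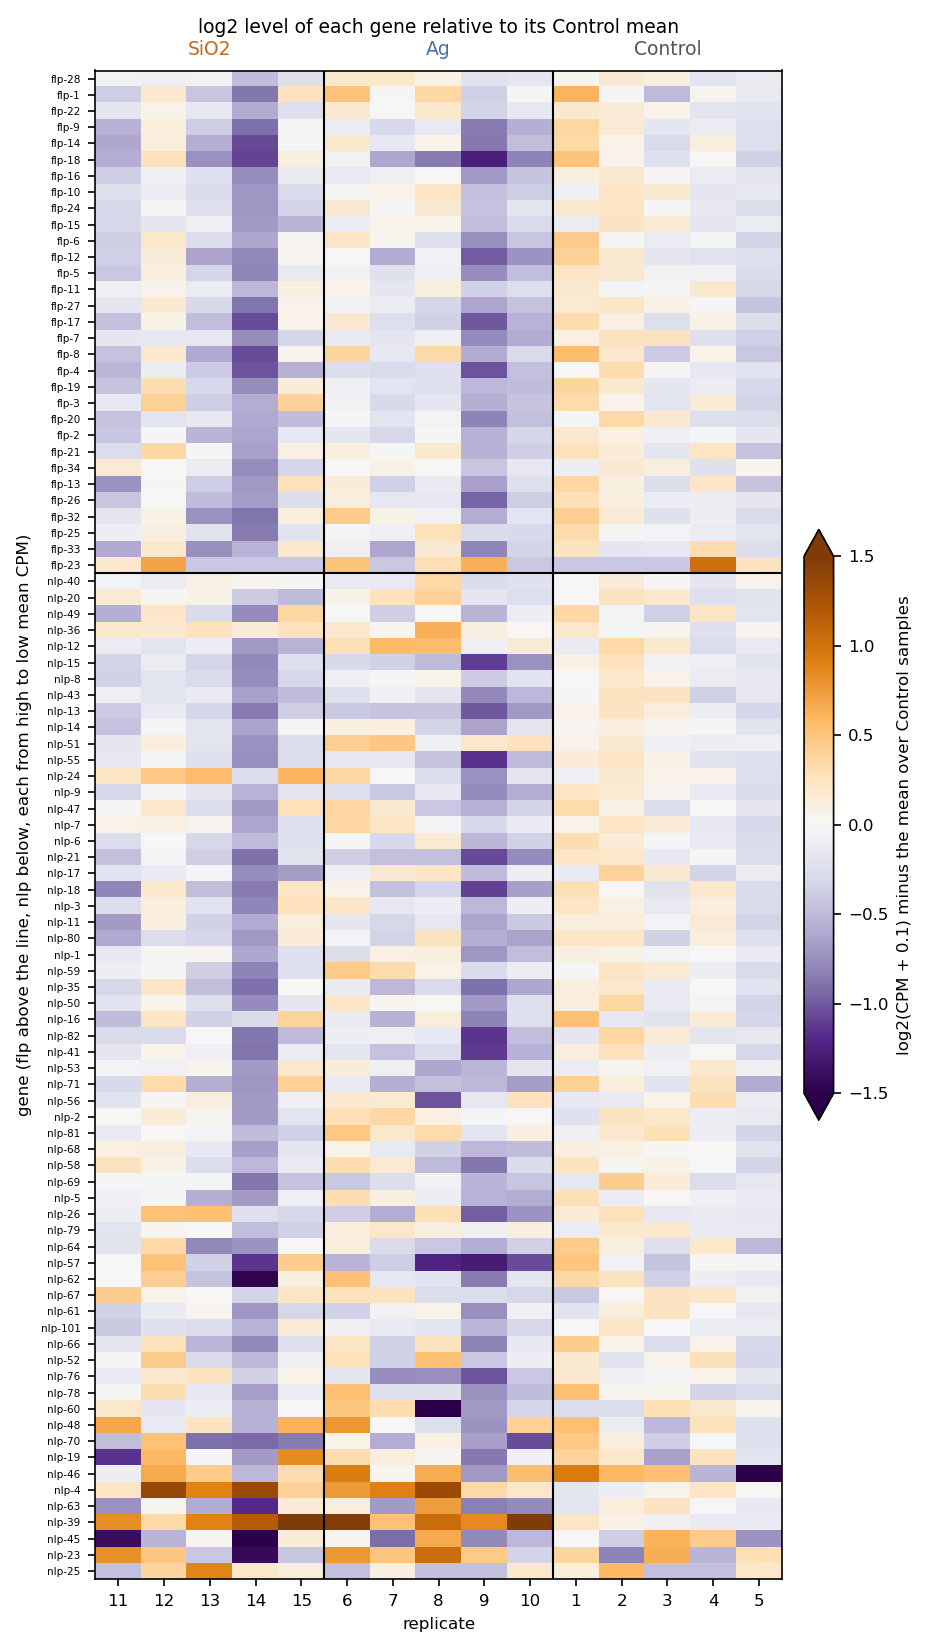
Level of each gene in each sample as log2(CPM + 0.1) minus the mean over Control, with columns for the SiO2, Ag and Control replicates and rows for flp genes (top) and nlp genes (bottom), colours limited at 1.5 on either side. The columns of SiO2 replicate 14 and Ag replicate 9 are below the Control mean in 88 and 87 of the 93 rows, and the rows of nlp-39 and nlp-4 are above it in both exposure groups.

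The comparison of the SiO2 group with Control addressed whether SiO2 exposure changed the precursors. None of the 93 genes passed an adjusted p of 0.05 in edgeR's quasi-likelihood test, against 2.66% of all 20739 genes tested (1.91% higher and 0.743% lower). At an unadjusted p under 0.05 there were 20 genes (21.5%, against 14.9% of all genes), 16 of them lower (17.2%, against 5.97%) and 4 higher (4.3%, against 8.95%). edgeR's likelihood ratio test called nlp-39 and nlp-4 (both higher), and DESeq2 called nlp-39 (higher), nlp-8 and flp-4 (both lower). The fitted log2 fold change was negative for 83 of the 93 genes (89.2%, against 47.3% of all genes), among them all 31 flp genes. Its median was -0.25, with -0.29 for flp and -0.18 for nlp genes, against 0.01 over all genes. The median was -0.14 without SiO2 replicate 14 and -0.33 without SiO2 replicate 12.

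The SiO2 and Control samples did not overlap for 3 genes. nlp-8, a neuropeptide of the ALA neuron that acts in stress-induced sleep, had 35.7, 39.7, 37.2, 26.8 and 36.7 CPM in the SiO2 group and 45.0, 52.2, 47.2, 42.2 and 41.2 CPM in Control. All SiO2 samples were below the lowest Control sample, as held for 1.86% of all genes, and its log2 fold change was -0.38 ± 0.12 (± SE; adjusted p = 0.111). nlp-4 had 0.690, 1.62, 1.16, 1.60 and 0.796 CPM in the SiO2 group and 0.496, 0.535, 0.599, 0.688 and 0.578 CPM in Control, with log2 fold change 1.02 ± 0.29 (adjusted p = 0.081). The lowest SiO2 sample and the highest Control sample differed only in the third decimal, and 1.87% of all genes had all SiO2 samples above Control. nlp-39 had 0.425, 0.277, 0.453, 0.571 and 1.94 CPM in the SiO2 group and 0.248, 0.214, 0.184, 0.172 and 0.173 CPM in Control, with log2 fold change 1.84 ± 0.53 (adjusted p = 0.0781). Replicate 15 was far above the other SiO2 samples, with 39 counts where the others had 7 to 10 and Control samples had 3 to 5. Without this replicate the log2 fold change of nlp-39 was 1.08 (adjusted p = 0.159), and without it nlp-4 passed the threshold (log2 fold change 1.13, adjusted p = 0.0366).

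The genes with the next smallest p-values were mostly lower in the SiO2 samples, none of them past the adjusted threshold. flp-4 had 15.6, 21.0, 17.02, 11.0 and 15.2 CPM in the SiO2 group and 22.5, 28.1, 22.8, 20.3 and 19.4 CPM in Control, and only SiO2 replicate 12 reached the Control range (log2 fold change -0.51 ± 0.16, adjusted p = 0.113). nlp-13, nlp-15 and nlp-21 had log2 fold changes of -0.41, -0.35 and -0.38, each with an SE of 0.13 to 0.15 and adjusted p-values of 0.138 to 0.228. flp-15, flp-20, which is expressed in touch receptor neurons, and flp-10, from the CO2-sensing BAG neurons among other cells, had -0.36, -0.39 and -0.32, with adjusted p-values of 0.194 to 0.23. nlp-24, whose opioid-like peptides promote feeding in starved worms, went the other way, with 34.8, 41.5, 44.5, 24.8 and 45.4 CPM in the SiO2 group and 28.6, 33.7, 31.2, 31.2 and 25.1 CPM in Control. In 4 of the 5 SiO2 samples nlp-24 was above the highest Control sample, while replicate 14 was below the lowest (log2 fold change 0.34 ± 0.15, adjusted p = 0.271). Without that replicate the log2 fold change was 0.46 and the adjusted p 0.0481.

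The comparison of the Ag group with Control addressed the same question for Ag. Here 6 of the 93 genes (6.45%) passed an adjusted p of 0.05, against 7.76% of all 20669 genes tested (3.41% lower and 4.35% higher). nlp-13, nlp-15, nlp-21, nlp-57 and flp-18 were lower and nlp-39 was higher in the Ag group. At an unadjusted p under 0.05 there were 24 genes (25.8%, against 29.9% of all genes), 20 of them lower (21.5%, against 14.6%) and 4 higher (4.3%, against 15.3%). The log2 fold change was negative for 75 of the 93 genes (80.6%, against 50.6% of all genes), 28 flp and 47 nlp genes. Its median was -0.21, against -0.01 over all genes, and it was -0.11 without Ag replicate 9 and -0.30 without Ag replicate 6.

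flp-18 encodes peptides that act on the receptors NPR-1, NPR-4 and NPR-5 in foraging, fat metabolism and locomotion, and it lies on chromosome X (3012182 to 3018555, minus strand, build WBcel235). It had 60.5, 40.9, 34.7, 26.1 and 35.96 CPM in the Ag group and 89.1, 65.0, 53.8, 62.9 and 49.5 CPM in Control. Only Ag replicate 6 reached the Control range, and expression in the Ag group fell 1.61-fold (log2 fold change -0.69 ± 0.20, adjusted p = 0.0449). In the SiO2 group flp-18 split, with 75.7 and 67.6 CPM in replicates 12 and 15 and 41.9, 37.6 and 29.5 CPM in replicates 11, 13 and 14. The call in the Ag group was lost when any library but Ag replicate 6 or Control replicate 5 was left out, with adjusted p-values up to 0.0978.

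nlp-13 (chromosome V, 4236418 to 4238056, plus strand) had 37.3, 36.5, 36.3, 24.5 and 30.5 CPM in the Ag group and 51.03, 58.4, 53.4, 46.5 and 39.5 CPM in Control. All Ag samples were below Control, which held for 4.91% of all genes, and nlp-13 fell by 0.59 ± 0.13 on the log2 scale (adjusted p = 0.0206). nlp-15 (chromosome I, 12988231 to 12995475, plus strand), an orcokinin-like precursor, had 41.1, 39.8, 35.8, 23.4 and 30.3 CPM in the Ag group and 53.1, 60.6, 48.6, 47.7 and 43.7 CPM in Control. These groups did not overlap either, and nlp-15 fell by 0.57 ± 0.14 (adjusted p = 0.0308). nlp-21 (chromosome III, 11388624 to 11393262, minus strand) had 25.03, 23.3, 23.4, 15.5 and 18.97 CPM in the Ag group and 37.7, 37.3, 29.3, 31.9 and 26.8 CPM in Control. It fell by 0.62 ± 0.14 (adjusted p = 0.0228), again without overlap, and it shares 46 exonic bases with subs-4 on the other strand. In the SiO2 group the same 3 genes averaged 37.5 ± 6.46, 39.8 ± 6.43 and 25.1 ± 5.40 CPM (SD, n = 5), between the Ag means of 33.0, 34.1 and 21.3 CPM and the Control means of 49.8, 50.7 and 32.6 CPM.

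nlp-57 (chromosome X, 11317050 to 11318055, plus strand) was the gene of the 93 with the most negative fitted fold change in the Ag group. It had 3.26, 3.63, 1.99, 1.90 and 2.27 CPM in the Ag group and 6.79, 4.60, 3.50, 4.86 and 4.68 CPM in Control, so that Ag replicate 7 overlapped the lowest Control sample, and it fell 1.86-fold (log2 fold change -0.89 ± 0.23, adjusted p = 0.0322). In the SiO2 group it ranged between 2.11 and 6.88 CPM, across the Control range and below it. nlp-39 (chromosome I, 12461656 to 12461895, plus strand) rose 2.81-fold in the Ag group (log2 fold change 1.49 ± 0.38, adjusted p = 0.0309), at a very low level. It had 0.724, 0.326, 0.514, 0.433 and 0.850 CPM in the Ag group, or 7 to 16 counts, all above the highest Control sample, as held for 4.29% of all genes.

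**Figure D4:**
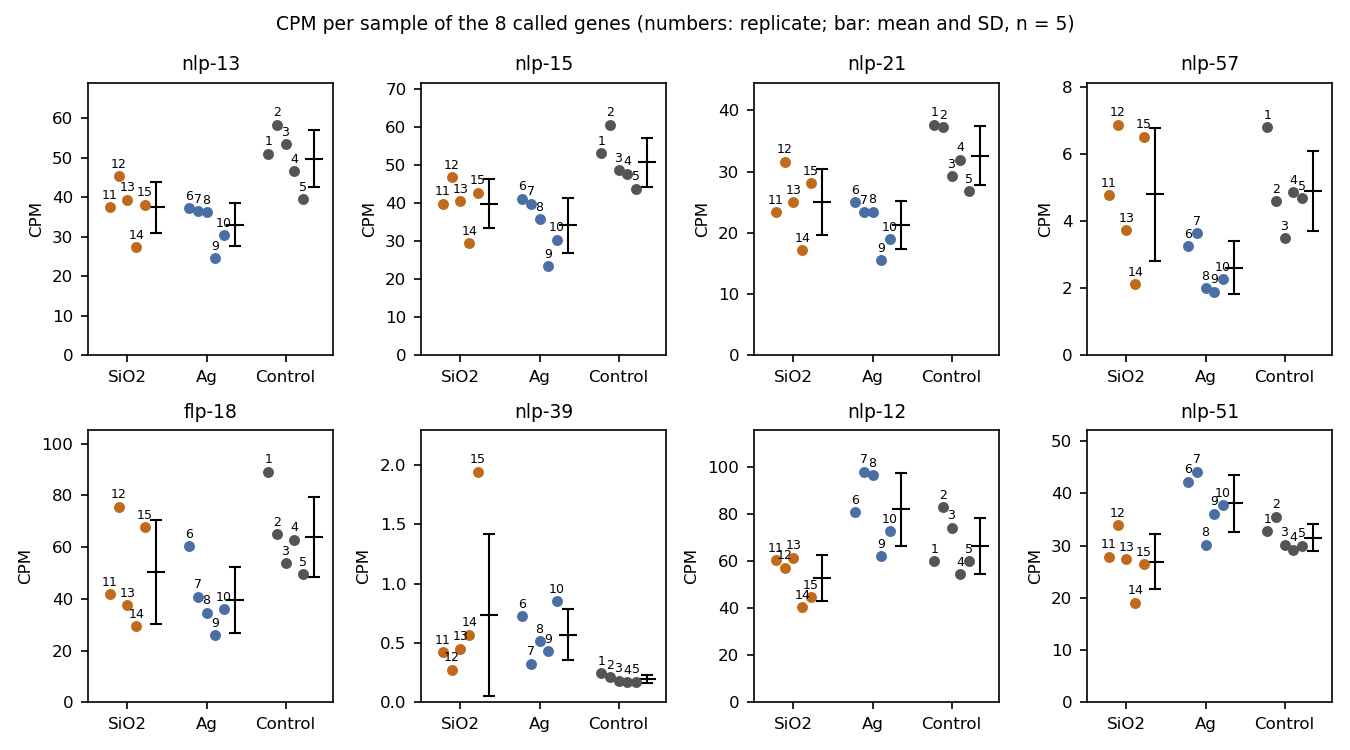
CPM per sample in the SiO2, Ag and Control groups for the 8 genes that passed an adjusted p of 0.05 in any comparison (points: samples with their replicate numbers, bars: mean and SD, n = 5). nlp-13, nlp-15 and nlp-21 are lower in all Ag samples than in any Control sample, and nlp-12 is lower in all SiO2 samples than in any Ag sample.

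Leaving out single libraries changed these calls, and the shares of all genes called in such fits are not given here. Without Control replicate 2 none of the 93 genes passed, without Control replicate 4 there was 1, without Control replicate 3 or Ag replicate 10 there were 2, without Ag replicate 9 there were 3, and without Control replicate 5 there were 11. nlp-13 was lost without Control replicate 2 or 3 (adjusted p up to 0.0628), nlp-21 without Control replicate 2 or 4 (up to 0.0619), nlp-15 without Control replicate 2, 3 or 4 or Ag replicate 9 or 10 (up to 0.0799), nlp-57 without Control replicate 1, 2 or 4 or Ag replicate 9 or 10 (up to 0.0738), and nlp-39 without Control replicate 2, 3 or 4 or Ag replicate 6 or 10 (up to 0.0846). With all 15 samples in 1 fit, flp-18, nlp-39 and nlp-57 were not called (adjusted p = 0.074, 0.0717 and 0.0508), and with library size only flp-18 was not (adjusted p = 0.0556). The fitted direction of the 6 genes was the same in all of these fits.

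Further genes had lower fitted levels in the Ag group without passing the adjusted threshold in the quasi-likelihood test. DESeq2 called 5 of them lower, namely flp-4, nlp-9, nlp-35, nlp-41 and nlp-76 (adjusted p = 0.0376, 0.0208, 0.0185, 0.0303 and 0.0342), and edgeR's likelihood ratio test called nlp-9, nlp-35 and nlp-76 (adjusted p = 0.0341, 0.036 and 0.0416). flp-4 had 18.8, 18.4, 19.1, 11.0 and 16.3 CPM in the Ag group, all below the lowest Control sample of 19.4 CPM (log2 fold change -0.44 ± 0.15, adjusted p = 0.085 in the quasi-likelihood test). nlp-76 had 2.40, 1.58, 1.60, 1.30 and 2.04 CPM in the Ag group and 3.12, 2.62, 2.72, 2.88 and 2.43 CPM in Control, also without overlap (log2 fold change -0.62 ± 0.20, adjusted p = 0.0694). nlp-76 shares 67 exonic bases with nhr-17 on the same strand. nlp-9, nlp-35 and nlp-41 had log2 fold changes of -0.42, -0.47 and -0.50, with adjusted p-values of 0.0626 to 0.0805. nlp-4 had 1.04, 1.16, 1.60, 0.758 and 0.680 CPM in the Ag group, where the lowest sample overlapped the highest Control sample of 0.688 CPM (log2 fold change 0.84 ± 0.29, adjusted p = 0.0809).

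Both comparisons use the same Control samples, so their values are given side by side only. The log2 fold change was negative against Control in both groups for 69 of the 93 genes, and positive in both for nlp-4, nlp-36, nlp-39 and nlp-48. It was negative in the SiO2 group and positive in the Ag group for 14 genes, among them nlp-12, nlp-51, flp-1, nlp-20, nlp-7 and nlp-59, and positive in the SiO2 group and negative in the Ag group for 6 genes, among them nlp-24, nlp-26 and nlp-76. The median SE of the 93 genes was 0.17 in each comparison.

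The direct comparison of the SiO2 group with the Ag group, in a fit of all 15 samples, addressed whether the exposures differed. It gave 2 of the 93 genes (2.15%) past an adjusted p of 0.05, nlp-12 and nlp-51, both lower in the SiO2 group, against 3.4% of all 21180 genes tested (1.36% lower). At an unadjusted p under 0.05 there were 9 genes (9.68%, against 20.9% of all genes), 5 of them lower (5.38%, against 7.72%) and 4 higher (4.3%, against 13.2%). None of the 93 genes was higher in all SiO2 samples than in any Ag sample, against 2.48% of all genes. The median log2 fold change was 0.00, and 46 of the 93 values were negative (49.5%, against 49.2% of all genes).

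nlp-12 encodes cholecystokinin-like peptides that the DVA neuron, a stretch-sensitive interneuron, releases to adjust body bending during locomotion. The gene lies on chromosome I (1843384 to 1843959, plus strand). It had 60.4, 57.2, 61.4, 40.3 and 44.7 CPM in the SiO2 group and 80.7, 97.8, 96.5, 61.96 and 72.5 CPM in the Ag group. All SiO2 samples were below the lowest Ag sample, as held for 2.32% of all genes, and nlp-12 was 1.55-fold lower in the SiO2 group (log2 fold change -0.63 ± 0.15, adjusted p = 0.0237). Control samples, at 60.0, 82.9, 74.1, 54.5 and 59.8 CPM, overlapped both groups. Against Control the log2 fold change was -0.33 ± 0.15 in the SiO2 group (adjusted p = 0.293) and 0.31 ± 0.14 in the Ag group (adjusted p = 0.165). The difference between the exposures was no longer called without Ag replicate 7, Ag replicate 8 or SiO2 replicate 15 (adjusted p up to 0.0695), nor with the Kallisto estimates (log2 fold change -0.72, adjusted p = 0.0781).

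nlp-51 (chromosome II, 11319223 to 11319691, minus strand) had 27.9, 33.9, 27.4, 19.1 and 26.5 CPM in the SiO2 group and 42.2, 44.1, 30.2, 36.1 and 37.7 CPM in the Ag group. SiO2 replicate 12 was above Ag replicate 8, and the other samples did not overlap (log2 fold change -0.50 ± 0.13, adjusted p = 0.044). Control samples lay between 29.2 and 35.5 CPM. This call was kept when Ag replicate 8, SiO2 replicate 12 or SiO2 replicate 14 was left out and lost when any other library was, with adjusted p-values up to 0.113.

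Among the other genes, nlp-76 and nlp-57 were higher in the SiO2 than in the Ag group without passing the threshold, with log2 fold changes of 0.64 ± 0.19 (adjusted p = 0.0717) and 0.88 ± 0.28 (adjusted p = 0.0832). Both were called by DESeq2 (adjusted p = 0.0265 and 0.0316) and by the likelihood ratio test. nlp-26 had 0.56 ± 0.23 and nlp-24 had 0.48 ± 0.18, with adjusted p-values of 0.171 and 0.129. nlp-59, nlp-81, nlp-79 and nlp-8 had -0.40, -0.39, -0.28 and -0.25, with adjusted p-values of 0.167 to 0.262. For nlp-40 the difference was 0.06 with an interval of 2 SE on either side of -0.15 to 0.27.

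**Figure D5:**
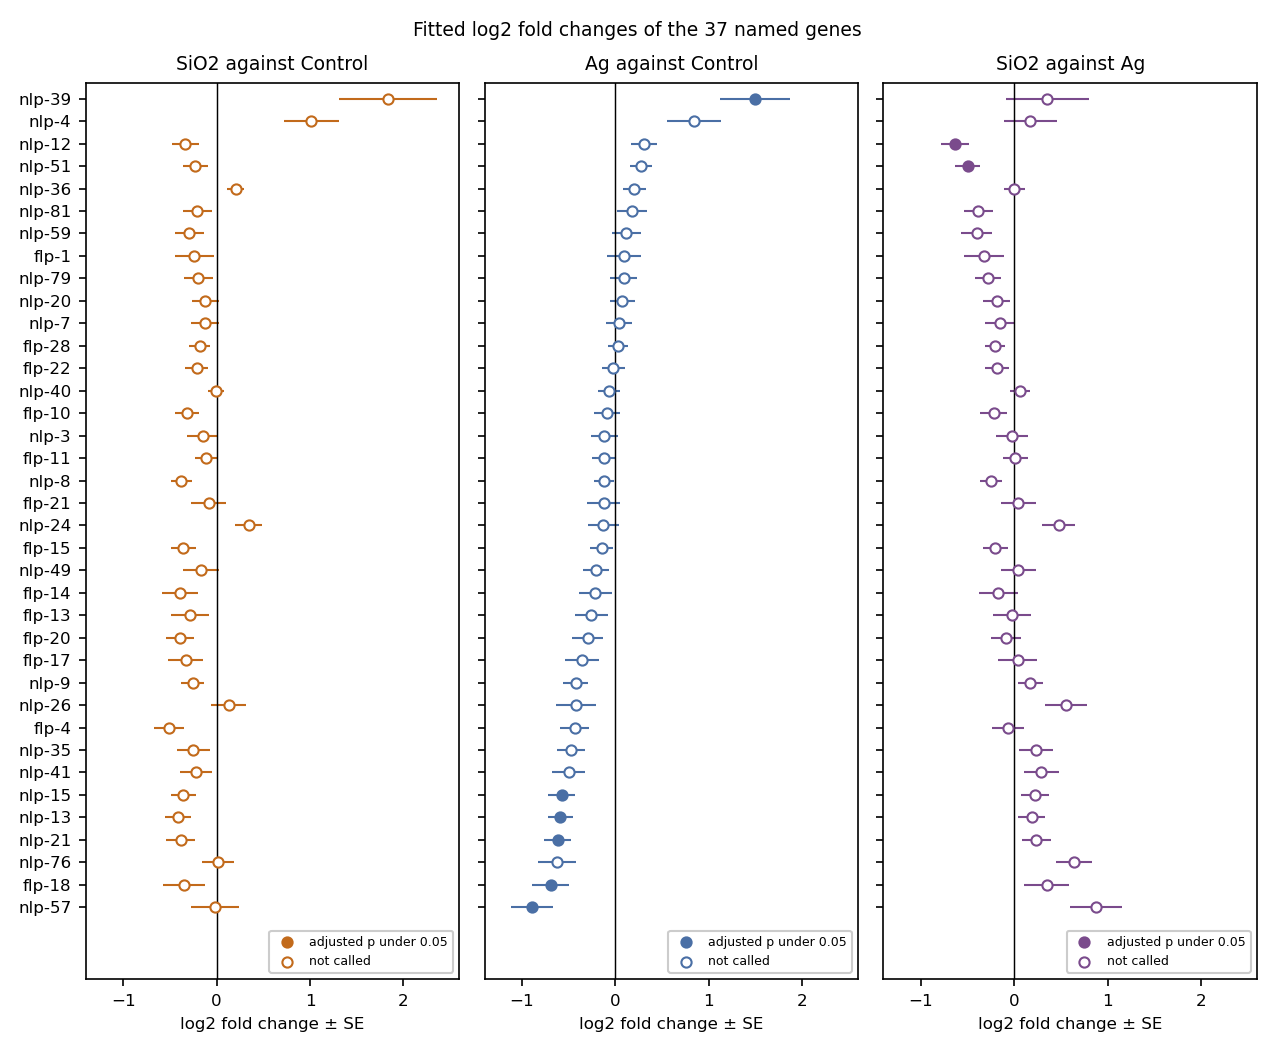
Fitted log2 fold changes of the 37 named genes (points: estimate, lines: SE on either side, filled points: adjusted p under 0.05) for SiO2 against Control, Ag against Control and SiO2 against Ag, with genes ordered by the Ag values. The filled points are the 6 genes called in Ag and, in the right panel, nlp-12 and nlp-51, and no point is filled for SiO2 against Control.

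The precursors were also grouped by known roles. These groups hold 1 to 6 genes, so their counts of calls cannot be set apart from the shares over all genes (2.66% in SiO2 against Control, 7.76% in Ag against Control and 3.4% in SiO2 against Ag). Of the 5 egg-laying genes (flp-10, flp-11, flp-17, nlp-3 and nlp-7) none was called in any comparison. This held for the quasi-likelihood test, the likelihood ratio test and DESeq2. In the quasi-likelihood test 1 had an unadjusted p under 0.05, flp-10 in SiO2 against Control, where 14.9% of all genes did. Their summed level was 136 ± 24.8 CPM in the SiO2 group, 146 ± 26 CPM in the Ag group and 159 ± 16.1 CPM in Control. nlp-3, which stimulates egg laying from the HSN neurons, had 14.6, 18.98, 15.2, 10.0 and 21.1 CPM in the SiO2 group and 20.4, 15.7, 16.5, 12.3 and 16.5 CPM in the Ag group. Control samples had 20.4, 18.7, 16.0, 18.95 and 14.3 CPM, so that the groups overlapped throughout. flp-17, an inhibitor of egg laying released from the BAG neurons, had log2 fold changes of -0.33 ± 0.18 in SiO2 and -0.36 ± 0.18 in Ag against Control (adjusted p = 0.431 and 0.192).

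Of the 6 genes listed for sleep, 5 are among the 93 and nlp-22 is under the required total. None of the 6 was called in any comparison by the quasi-likelihood test or the likelihood ratio test, and DESeq2 called nlp-8 lower in SiO2 against Control (adjusted p = 0.03). At an unadjusted p under 0.05 in the quasi-likelihood test there were 2 in SiO2 against Control, 0 in Ag against Control and 1 in SiO2 against Ag. Of all genes 14.9%, 29.9% and 20.9% were under that p in these comparisons. The log2 fold change against Control was negative for all 6 in both groups, as it was for 89.2% of the 93 genes in SiO2 and 80.6% in Ag. The medians over the 6 were -0.30 in SiO2 and -0.15 in Ag. They include nlp-22, whose 6 counts over all samples are too few to give a direction. flp-11, the main sleep-inducing precursor of the RIS neuron, had -0.11 ± 0.13 in SiO2 and -0.12 ± 0.13 in Ag. flp-13, from the ALA neuron, had -0.29 ± 0.20 and -0.26 ± 0.18. nlp-8, described above, had -0.38 ± 0.12 in SiO2 and -0.12 ± 0.11 in Ag, and the difference between the exposures was -0.25 ± 0.11 (adjusted p = 0.221).

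Of the 4 locomotion genes, flp-18 was lower in Ag against Control and nlp-12 was lower in SiO2 against Ag, and flp-1 and flp-14 were not called. flp-1, which is made in the AVK interneurons and restrains locomotion, had 52.6, 77.7, 50.6, 37.2 and 81.8 CPM in the SiO2 group and 97.1, 69.0, 87.2, 53.2 and 69.2 CPM in the Ag group. In Control it had 105, 67.4, 48.3, 70.3 and 61.96 CPM, and the spread within each group exceeded the differences between the means. flp-14 had log2 fold changes of -0.39 ± 0.19 in SiO2 and -0.22 ± 0.18 in Ag (adjusted p = 0.349 and 0.423). In feeding and foraging, flp-18 was called in Ag, while flp-21, another ligand of NPR-1, had -0.09 ± 0.18 in SiO2 and -0.13 ± 0.18 in Ag. The remaining gene of this list, nlp-24, had 0.34 ± 0.15 in SiO2 and -0.13 ± 0.16 in Ag (adjusted p = 0.271 and 0.615 in the quasi-likelihood test).

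nlp-40, the intestinal precursor, had 231, 219, 252, 243 and 241 CPM in the SiO2 group, 217, 217, 303, 197 and 204 CPM in the Ag group and 237, 261, 236, 211 and 248 CPM in Control. Apart from Ag replicate 8 the values lay close together, and the log2 fold changes were -0.01 ± 0.09 in SiO2 and -0.07 ± 0.12 in Ag against Control. Ag replicate 8 also had the highest summed level of the 5 intestinal markers, 1770 CPM where the other 14 samples ranged between 1024 and 1483 CPM, and the part of this in its nlp-40 level was not tested. Of the other genes with the highest levels per kilobase, nlp-20, nlp-36, flp-28, flp-22 and nlp-49 had log2 fold changes against Control between -0.21 and 0.20 in both groups. nlp-12 (-0.33 in SiO2 and 0.31 in Ag) and flp-14 (-0.39 and -0.22) lay outside this range. None of these genes passed the adjusted threshold against Control.

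The other genes of the neuropeptide pathway were examined as lists. Of 21 genes for precursor processing and dense core vesicles, 3 were lower in Ag against Control (14.3%, against 3.41% of all genes called lower). None was called in SiO2 against Control, where 2.66% of all genes were, and none by the likelihood ratio test or DESeq2. At an unadjusted p under 0.05 there were 4 in SiO2, all lower, where 5.97% of all genes were lower. In Ag against Control 10 were lower and 1 was higher at that p, where 14.6% and 15.3% of all genes were. The 3 genes called in Ag were kpc-1, a proprotein convertase, nep-1, a neprilysin-like peptidase, and tbc-8, a regulator of dense core vesicle maturation. Their log2 fold changes were -0.53 ± 0.11, -0.46 ± 0.10 and -0.50 ± 0.14 (adjusted p = 0.017, 0.0174 and 0.0433). nep-1 was also higher in SiO2 against Ag (0.48 ± 0.09, adjusted p = 0.00595). It was the only call of the list in that comparison by the quasi-likelihood test (4.76%, against 3.4% of all genes). DESeq2 called eipr-1 lower there besides nep-1. egl-3 and egl-21, which process most of these precursors, had -0.29 ± 0.10 and -0.25 ± 0.11 in SiO2 and -0.29 ± 0.10 and -0.28 ± 0.09 in Ag, with adjusted p-values of 0.174 and 0.281 in SiO2 and 0.0792 and 0.0669 in Ag. DESeq2 called 7 genes of the list lower in Ag, egl-3 and egl-21 among them, and 1 higher. The medians of the list were -0.09 in SiO2 and -0.25 in Ag. Of 102 tested receptor genes the quasi-likelihood test called none in any comparison, where it called 2.66% of all genes in SiO2 against Control, 7.76% in Ag against Control and 3.4% in SiO2 against Ag. At an unadjusted p under 0.05 there were 4, 22 and 12 receptor genes in these comparisons, where 14.9%, 29.9% and 20.9% of all genes were. Of these receptor genes 3, 21 and 1 were lower, where 5.97%, 14.6% and 7.72% of all genes were lower at that p. The likelihood ratio test called 1, 5 and 2 of the receptor genes and DESeq2 called 1, 6 and 3. The shares of all genes called by these 2 tests are not given here. The medians of the list were -0.08 in SiO2 and -0.31 in Ag against Control.

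The 7 peptide precursors with other names were pdf-1, pdf-2, ntc-1, capa-1, snet-1, trh-1 and lury-1. None was called by the quasi-likelihood test or the likelihood ratio test, and DESeq2 called 3 lower in Ag (capa-1, pdf-1 and snet-1). At an unadjusted p under 0.05 in the quasi-likelihood test there was 1 in SiO2 and 3 in Ag against Control, where 14.9% and 29.9% of all genes were. All 7 had negative log2 fold changes in both groups, with medians of -0.33 in SiO2 and -0.40 in Ag. pdf-1, a pigment-dispersing factor precursor that acts in roaming and locomotion, averaged 71.4 CPM in the SiO2 group, 70.1 CPM in the Ag group and 94.0 CPM in Control (log2 fold changes -0.40 ± 0.18 and -0.42 ± 0.15, adjusted p = 0.296 and 0.0842). Of the 12 pan-neuronal genes, rgef-1, unc-18 and unc-119 were called lower in Ag against Control, where 3.41% of all genes were. At an unadjusted p under 0.05 in the quasi-likelihood test 10 of the 12 were lower there, where 14.6% of all genes were. The likelihood ratio test and DESeq2 each called 6 of the 12 lower, and their shares of all genes are not given here. All 12 log2 fold changes were negative in Ag, with a median of -0.38. In SiO2 against Control the median was -0.07, with 9 of the 12 values negative, and none was called or had an unadjusted p under 0.05. Of 10 genes of transmitter identity, unc-25 (log2 fold change -0.76, adjusted p = 0.0019) and eat-4 (-0.64, adjusted p = 0.0374) were lower and tdc-1 (0.50, adjusted p = 0.0392) was higher in Ag against Control, and unc-25 was higher in SiO2 against Ag (0.62, adjusted p = 0.00173). The calls in Ag against Control were 30.0% of this list, against 7.76% of all genes, and those in SiO2 against Ag were 10.0%, against 3.4%. At an unadjusted p under 0.05 in Ag against Control 5 genes of the list were lower and 1 was higher, where 14.6% and 15.3% of all genes were. In SiO2 against Ag 6 were higher at that p, where 13.2% of all genes were. The median against Control was -0.42 in Ag, with 8 of the 10 values negative, and -0.01 in SiO2. The summed level of this list was nevertheless 394 ± 59.7 CPM in the SiO2 group, 410 ± 42.6 CPM in the Ag group and 384 ± 36.6 CPM in Control. The 3 germ line genes were all higher in Ag against Control (100%, against 4.35% of all genes called higher), with log2 fold changes of 0.68 to 0.93. They had a median of 0.38 in SiO2, where none was called, against 1.91% of all genes called higher. Of the 30 sperm protein genes tested in each comparison with Control, 20 were higher in SiO2 (66.7%, against 1.91% of all genes). In Ag 10 were higher (33.3%, against 4.35% of all genes). The part of these marker changes in the neuropeptide values was not tested.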

How the data were processed

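RNA from whole N2 worms was sequenced as single reads of 100 bases in 15 samples. Per the labels and the study's methods, the authors trimmed reads with Trim Galore 0.4.5, aligned them to WBcel235 with HISAT2 2.1.0 and counted them with HTSeq 0.9.1 on Ensembl release 91. The strand setting is not given in the sources used here. The deposited counts are raw reads per gene. The authors also deposited estimated counts from Kallisto summed to genes with tximport, which were rounded to whole numbers and used only as an alternative.

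Gene symbols were matched for 43818 of the 46778 gene IDs. Genes whose counts summed to 3 or more in the samples fitted were tested with edgeR 4.0.16 (R 4.3.3): TMM normalization, the quasi-likelihood F test and Benjamini-Hochberg adjustment over all genes tested, with an adjusted p under 0.05 as the threshold. SiO2 and Ag were each fitted with Control alone, and SiO2 against Ag in a fit of all 15 samples. SE is the absolute log2 fold change divided by the square root of F, and intervals span 2 SE on either side. CPM are TMM-scaled over the 15 samples, and exonic lengths and coordinates came from Ensembl release 115 (WBcel235). Named genes are those called in any comparison, those with the smallest p-values to make 10 per comparison, the 8 highest per kilobase and a list of genes with known roles, 37 in all. The tests were checked on simulated counts. The members and lists were chosen with earlier results of these data known. The alternatives were edgeR's likelihood ratio test, DESeq2 1.42.0, other filters and normalizations, the Kallisto estimates, other samples in the fit and leaving out each sample. Figures were drawn with matplotlib 3.10.9.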

Additional observations from a re-analysis of the deposited data

Results flagged for a closer look

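In 3 groups of 5 samples 1 sample stood far from the others by Dixon's criterion, of 117 groups looked at, where chance gives about 1 in 20 (5.8). nlp-36 had 97.0 CPM in Ag replicate 8 and 62.6 to 71.4 CPM in the other Ag samples. nlp-40 had 303 CPM in the same library and 197 to 217 CPM in the others. nlp-39 had 1.94 CPM in SiO2 replicate 15 and 0.277 to 0.571 CPM in the other SiO2 samples. In the direct comparison of SiO2 with Ag, nlp-12 was called with a difference of -0.63 on the log2 scale and nlp-51 with -0.50. These are 2.15% of the 93 genes, against 3.4% of all genes called. Neither gene was called against Control in either group, and both calls were lost when some single libraries were left out.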

How the results depend on the processing

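The number of the 93 genes called for SiO2 against Control was 0, and it was 2 with edgeR's likelihood ratio test, 3 with DESeq2 and 0 to 1 when 1 library was left out. For Ag against Control it was 6, and it was 10 with DESeq2, 4 with all 15 samples in 1 fit, 9 with the likelihood ratio test and 0 to 11 when 1 library was left out. For SiO2 against Ag it was 2, and it was 4 with the likelihood ratio test, 4 with DESeq2, 1 with library size only, 1 with the 2 groups alone and 0 to 5 when 1 library was left out. The shares of all genes called in the main fits were 2.66%, 7.76% and 3.4%. Those under the alternatives are not given here, so the counts under the alternatives cannot be set against all genes. The cause of the differences between the counts was not tested. The median log2 fold change stayed negative under every alternative run, between -0.33 and -0.14 for SiO2 and between -0.30 and -0.11 for Ag against Control. For SiO2 against Ag it lay between -0.10 and 0.09. The log2 ratio of the summed level was -0.20 for SiO2 and -0.16 for Ag against Control and stayed negative, and it was -0.05 for SiO2 against Ag, with a range of -0.13 to 0.04. Leaving nlp-40 out of the sum and using only genes of at least 1 CPM were chosen after seeing the data. The Kallisto estimates were 0 for 6 of the 93 genes, nlp-39 among them. Genes under 1 CPM rest on few counts per sample. No paired analysis was possible because the replicate numbers run through all 15 samples and no number occurs in more than 1 group.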
